A study of Homo sapiens with 12 samples.

Results

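PRC1.1 is a non-canonical Polycomb repressive complex, and the transcripts of its 9 core subunits were examined in K562 cells treated with the USP7 inhibitor FT671 or with its solvent. The subunits were PCGF1, BCOR, BCORL1, KDM2B, SKP1, RING1, RNF2, RYBP and YAF2. They were taken by symbol, without USP7, from the 60609 genes of each count table, after the Ensembl identifiers had been matched to GENCODE release 44. All 9 were found, and all 9 were among the 13895 genes that passed the filter on low counts. K562 is an established human cell line that was derived from chronic myeloid leukemia and carries the BCR-ABL1 fusion. RNA-seq was performed on total RNA after removal of ribosomal RNA, with 3 libraries from cells given DMSO and 3 from cells given FT671 at 10 μM for 48 h. All 6 came from the same line, and no genotype distinguished the groups. The labels number the libraries of each treatment as replicates 1, 2 and 3, and the paper describes them as independent experiments.

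Polycomb repressive complexes of the PRC1 type attach a single ubiquitin to a lysine in the tail of histone H2A, a mark called H2AK119ub that other chromatin proteins read. The enzyme core is RING1 (the protein RING1A) or RNF2 (the protein RING1B), and a PCGF protein bound to it decides which PRC1 complex is formed. In PRC1.1 this protein is PCGF1, which binds BCOR or its homolog BCORL1. KDM2B, held to the complex through BCOR and PCGF1 and joined to SKP1 through its F-box, binds unmethylated CpG dinucleotides by a CXXC zinc finger and so brings PRC1.1 to CpG islands. RYBP or its homolog YAF2 occupies a further position on RING1A/B and stimulates ubiquitination. SKP1 is shared with SCF ubiquitin ligases, and RING1, RNF2, RYBP and YAF2 are shared with other PRC1 complexes, so their transcripts are not particular to PRC1.1.

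Total counts ranged from 4555220 to 14250500 per library. An expression of 3 counts, taken as the floor, corresponded to between 0.208 and 0.666 CPM (counts scaled to a common library size, with TMM factors), a limit that covers counting error only. The 9 subunits lay far above this floor, with 131 to 4619 counts in a library. DMSO replicate 3 stood apart from the other libraries of its treatment, since chi-square per degree of freedom was 7.55 and 8.73 against DMSO replicates 1 and 2, compared with 2.94 between these and 2.07 to 3.20 among the FT671 libraries. Of 9 markers expected in K562, 8 were tested, 5 of them lower and 3 higher after FT671, and their summed level was 1253 to 1291 CPM with DMSO and 1121 to 1157 CPM with FT671. HBE1, the remaining one, had 2 to 13 counts. The part of these marker changes in the results was not tested. Markers of lymphoid cells reached at most 3.66 CPM, those of mature myeloid cells 0.444 CPM and those of fibroblasts 2.35 CPM, and MS4A1, ELANE, S100A8 and COL3A1 were at 0 in every library. USP7, the target of the inhibitor, fell from 119.01 ± 12.3 to 33.1 ± 3.38 CPM (SD, n = 3 each), which on the log2 scale is a change of -1.82 (SE 0.104, adjusted p = 2.66e-08, Benjamini-Hochberg, by the quasi-likelihood test of edgeR, as for every adjusted p of a gene here). In bulk RNA, fewer cells that express a gene and less RNA of it per cell cannot be told apart.

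FT671 moved the PRC1.1 subunits in both directions. KDM2B and BCOR fell, SKP1, RNF2 and YAF2 rose, and RING1, BCORL1, PCGF1 and RYBP did not pass an adjusted p of 0.05. Thus 2 of 9 subunits were lower and 3 of 9 higher, where over all genes tested 26.5% were lower and 23.6% higher, and 50.1% were called in either direction. The number higher was 1 (SKP1) without FT671 replicate 3 and 5 with DESeq2's size factors, which added RING1 and BCORL1. The number of all genes higher was 2522 and 3461 in these settings, against 3276 with all libraries and TMM factors. The median log2 fold change was 0.16 over the 9 subunits and -0.01 over all genes. In edgeR's test none of the 9 passed the adjusted p of 1e-05 used in the study's methods, though SKP1 lay just above it (1.11e-05). Over all genes 5.92% passed it, 4.13% lower and 1.79% higher. This depended on the setting. SKP1 passed, for example, with a block on replicate number (4.85e-06) and with DESeq2's size factors (7.21e-06), but not with library totals alone (1.78e-05). Without DMSO replicate 3, KDM2B (1.26e-08), SKP1 (1.08e-08), BCOR (8.17e-06) and RNF2 (5.34e-06) passed. None of the 9 passed when any other single library was left out. DESeq2's test put 2, KDM2B and SKP1, past 1e-05, and 7 had an unadjusted p under 0.05 in edgeR's test. The share of all genes past 1e-05 in these other settings, or past that unadjusted p, was not counted. Without DMSO replicate 3 more of all genes were called at 0.05 as well. They were 4100 lower and 3830 higher, against 3687 and 3276 with all libraries. The libraries of the treatments did not overlap for 6 of the 9 subunits, 2 lower and 4 higher, against 57.1% of all genes, of which 30.3% were lower and 26.8% higher. These counts rest on 9 genes, and their difference from the shares of all genes was not tested. The number of subunits called is therefore not a result about PRC1.1.

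**Figure D1:**
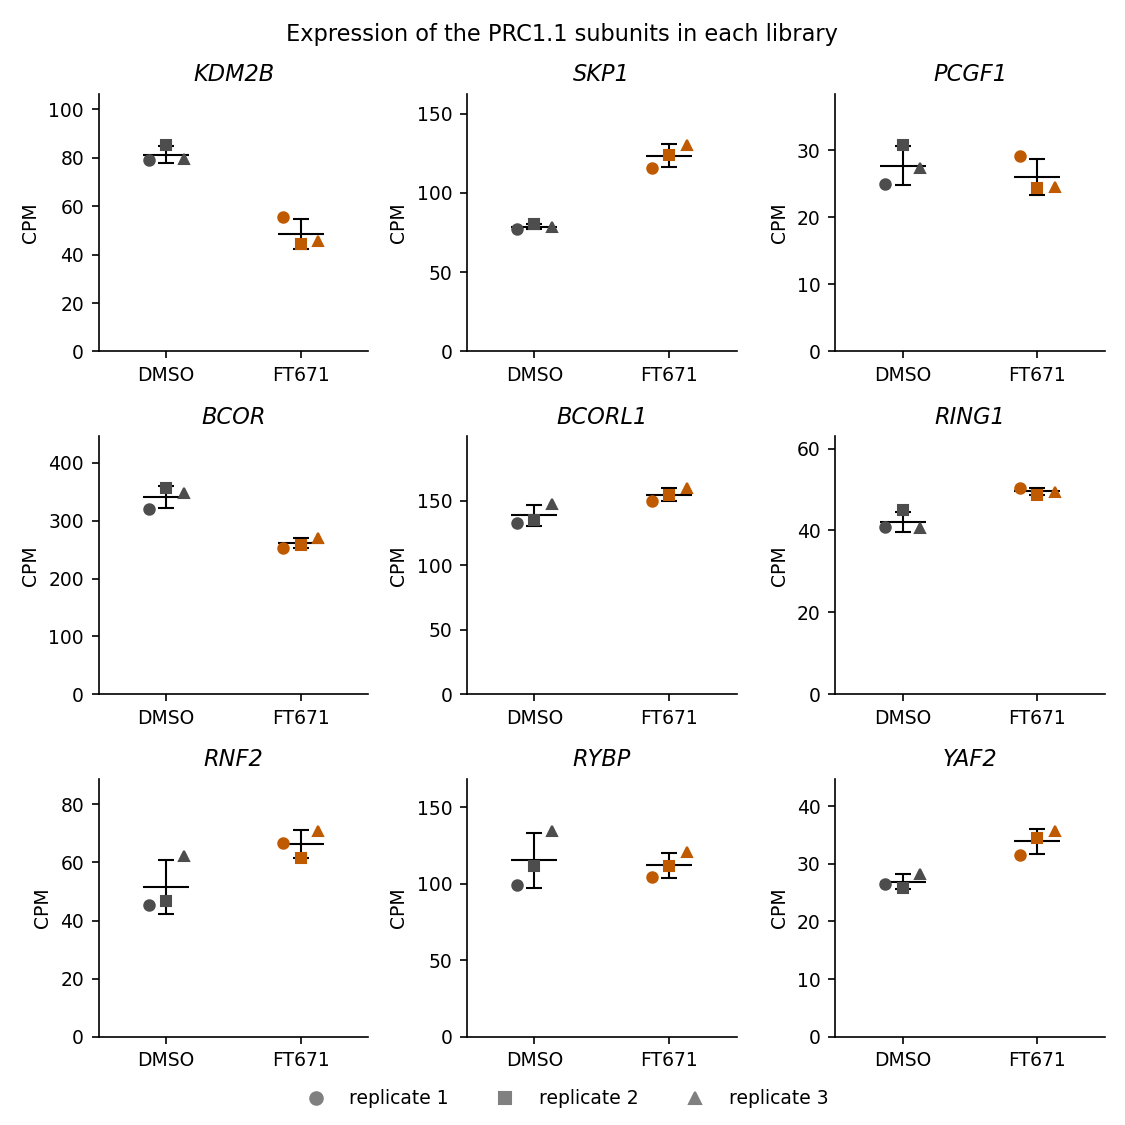
Expression of each PRC1.1 subunit (CPM, TMM-scaled, linear axis from 0) in the 3 DMSO and 3 FT671 libraries, with a marker shape for each replicate number and black bars for the mean and SD. KDM2B and BCOR lie lower and SKP1 higher in all FT671 libraries, whereas the libraries of RNF2, RYBP and PCGF1 overlap between treatments.

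The sequences before the transcription starts of the 5 called subunits are shown because KDM2B recognizes CpG, which is in capitals in each. They were taken from the RefSeq promoter table (GRCh38.p14), 5′ to 3′ on the strand of the gene, and comprise the 250 bases before a start without those that GENCODE places in an exon of the gene.
KDM2B, chr12:121581024-121581273, minus strand: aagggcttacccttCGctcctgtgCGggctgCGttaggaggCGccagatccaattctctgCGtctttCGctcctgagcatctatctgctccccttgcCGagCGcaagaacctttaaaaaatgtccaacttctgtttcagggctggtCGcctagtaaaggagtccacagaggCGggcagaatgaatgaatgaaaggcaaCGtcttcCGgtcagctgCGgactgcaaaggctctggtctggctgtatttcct
BCOR, chrX:40146634-40146883, minus strand: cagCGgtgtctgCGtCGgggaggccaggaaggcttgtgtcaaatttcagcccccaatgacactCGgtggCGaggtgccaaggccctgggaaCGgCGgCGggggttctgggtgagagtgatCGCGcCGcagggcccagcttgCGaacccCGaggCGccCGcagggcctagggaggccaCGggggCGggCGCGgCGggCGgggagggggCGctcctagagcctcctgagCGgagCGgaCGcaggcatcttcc
SKP1, chr5:134176965-134177200, minus strand: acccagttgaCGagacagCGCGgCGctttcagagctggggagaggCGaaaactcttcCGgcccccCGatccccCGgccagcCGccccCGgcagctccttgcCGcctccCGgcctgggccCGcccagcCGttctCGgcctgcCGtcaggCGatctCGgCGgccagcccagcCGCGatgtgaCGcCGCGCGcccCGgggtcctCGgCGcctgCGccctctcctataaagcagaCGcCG
RNF2, chr1:185045308-185045525, plus strand: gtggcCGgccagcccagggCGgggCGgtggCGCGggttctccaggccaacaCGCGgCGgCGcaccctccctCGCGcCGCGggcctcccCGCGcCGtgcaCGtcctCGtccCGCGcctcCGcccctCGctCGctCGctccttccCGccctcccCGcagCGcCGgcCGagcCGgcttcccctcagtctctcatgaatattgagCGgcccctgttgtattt
YAF2, chr12:42238350-42238498, minus strand: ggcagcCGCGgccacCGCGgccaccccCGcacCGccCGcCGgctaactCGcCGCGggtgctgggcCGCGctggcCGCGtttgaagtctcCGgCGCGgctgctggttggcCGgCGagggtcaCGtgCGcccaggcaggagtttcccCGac
For KDM2B the outermost of 4 RefSeq starts is shown, and for BCOR the inner of 2. All 9 subunits matched the table, with 14 promoters. The 250 bases held between 5 and 39 CpG, and 12 of the 14 promoters held more than the median of 11 over all 35114 promoters of this length. CG occurred in 93.9% of those. Among the called subunits the 4 KDM2B promoters held 13 (outermost), 32, 11 and 34 (innermost) CpG, the inner and outer BCOR promoters 25 and 5, SKP1 35, RNF2 34 and YAF2 37. These counts cover the full 250 bases, exon bases included. The parts shown held 31 for SKP1, 31 for RNF2 and 23 for YAF2. In the KDM2B windows with 32 and 34 CpG, 213 and 250 bases lay in exons of KDM2B. Of the subunits not called, PCGF1 held 12, BCORL1 25 and 39, RING1 34 and RYBP 17. Promoters with more CpG than the median thus lay before each of the 9 subunits, whether they fell, rose or were not called. The GC box GGGCGG was searched on both strands and occurred in 11 of the 14 promoters, belonging to 8 of the 9 subunits, and in 42.6% of all promoters. It was not in the outermost KDM2B promoter, the outer BCOR promoter or that of RYBP. TATAAA was found before SKP1 only (10.7% of all promoters), CACGTG before YAF2 and the outer start of BCOR (6.35% of all), and CCGGAAGT before none of the 9 (3.42% of all). These matches are descriptions of letters in a window, and no binding was measured here.

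KDM2B, the CpG-binding subunit, showed the largest change of the 9. Its level was 79.2, 85.3 and 79.7 CPM in DMSO replicates 1, 2 and 3 and 55.7, 44.6 and 45.6 CPM in FT671 replicates 1, 2 and 3. Every FT671 library was below every DMSO library, and FT671 replicate 1 was the highest of its treatment. The mean fell from 81.4 ± 3.40 to 48.6 ± 6.18 CPM (SD, n = 3 each), which on the log2 scale is a change of -0.75 (SE 0.0978, 95% interval -0.96 to -0.54, adjusted p = 2.62e-05), or 1.69-fold. KDM2B (ENSG00000089094) lies on the minus strand at chr12:121429096-121581023, and its RefSeq starts span 113645 bases. Long and short forms of KDM2B, with and without the JmjC demethylase domain, start at different places, and a count per gene cannot separate them. KDM2B shares 439 bases of exon with RNF34, a ubiquitin ligase gene on the opposite strand, which had 2071 counts over the 6 libraries beside 3513 for KDM2B and a log2 fold change of -0.30 (adjusted p = 0.0357). The strand setting of the counting is not given in the sources used here, so reads from the shared bases cannot be told apart.

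SKP1, the adaptor that binds the F-box of KDM2B, rose. It was at 77.5, 80.6 and 78.2 CPM in the DMSO libraries and at 116, 124 and 130 CPM in the FT671 libraries. The DMSO libraries were nearly equal and every FT671 library was higher. The mean rose from 78.8 ± 1.64 to 123.4 ± 7.13 CPM (SD, n = 3 each), which on the log2 scale is a change of 0.65 (SE 0.0766, 95% interval 0.49 to 0.82, adjusted p = 1.11e-05), or 1.57-fold. SKP1 (ENSG00000113558, minus strand, chr5:134148935-134176964) shares 210 bases of exon with TCF7, which encodes a transcription factor of the Wnt pathway and lies on the opposite strand. TCF7 had 1349 counts over the 6 libraries, SKP1 had 5088, and TCF7 rose as well, by a log2 fold change of 0.59 (adjusted p = 7.43e-04). Its part in the change of SKP1 was not tested. Pseudogenes of SKP1 and RNF2 listed in the tables had at most 1 count in a library. KDM2B-DT, which overlaps KDM2B, and FTH1P25, within RNF2, had 10 and 12 counts over the 6 libraries.

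BCOR, the scaffold that connects PCGF1 with KDM2B, fell. Its level was 320, 357 and 347 CPM in the DMSO libraries and 254, 258 and 271 CPM in the FT671 libraries, without overlap. The mean fell from 341 ± 19.2 to 261 ± 8.75 CPM (SD, n = 3 each), which on the log2 scale is a change of -0.39 (SE 0.0705, 95% interval -0.54 to -0.23, adjusted p = 4.56e-04), and -0.24 (adjusted p = 0.00868) with a correction for gene length. BCOR (ENSG00000183337, minus strand, chrX:40049815-40177329) overlaps no gene with 10 or more counts. BCORL1 (ENSG00000085185, plus strand, chrX:129981107-130058071), its homolog, did not pass the threshold. BCORL1 was at 133, 135 and 148 CPM with DMSO and 149, 154 and 160 CPM with FT671, the treatments being separated by a narrow gap. Its log2 fold change was 0.16 (SE 0.0736, 95% interval 0.01 to 0.32) with an adjusted p of 0.0794, and without DMSO replicate 3 it passed the threshold at 0.20 (adjusted p = 0.00879), as it did with the gene length correction at 0.29 (adjusted p = 0.00164) and the GC correction at 0.25 (adjusted p = 0.0131). PCGF1 (ENSG00000115289, minus strand, chr2:74505043-74507695), the subunit that defines the complex, was at 24.9, 30.8 and 27.4 CPM with DMSO and 29.1, 24.4 and 24.6 CPM with FT671. The treatments overlapped, and the interval of its log2 fold change, -0.36 to 0.16 around -0.10, included both a small fall and a small rise (adjusted p = 0.508). It shares 49 bases of exon with LBX2-AS1 on the opposite strand (842 counts beside 1385 for PCGF1), whose log2 fold change was 0.16 (adjusted p = 0.361).

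Of the catalytic subunits, RNF2 rose and RING1 did not pass the threshold. RNF2 (ENSG00000121481, plus strand, chr1:185045526-185102603) was at 45.4, 46.8 and 62.3 CPM with DMSO and at 66.6, 61.5 and 71.0 CPM with FT671. DMSO replicate 3 was high and lay above FT671 replicate 2, so the treatments overlapped. The log2 fold change was 0.39 (SE 0.118, 95% interval 0.14 to 0.64, adjusted p = 0.0130). It was 0.53 (adjusted p = 5.34e-06) without DMSO replicate 3, and the call was lost without DMSO replicate 1 (0.30, adjusted p = 0.0791), DMSO replicate 2 (0.34, adjusted p = 0.0514) or FT671 replicate 3 (0.33, adjusted p = 0.0783). RING1 (ENSG00000204227, plus strand, chr6:33208500-33212722) was at 40.8, 45.0 and 40.7 CPM with DMSO and at 50.4, 48.7 and 49.5 CPM with FT671. Each FT671 library was above each DMSO library, yet the log2 fold change of 0.23 (SE 0.0924, 95% interval 0.03 to 0.43) had an adjusted p of 0.0512. It passed the threshold without DMSO replicate 2 (0.29, adjusted p = 0.0444), with at least 10 counts required in every library (0.23, adjusted p = 0.0466) and with the GC correction (0.32, adjusted p = 0.00349), and was 0.13 (adjusted p = 0.236) with the gene length correction.

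YAF2 rose slightly and its homolog RYBP did not pass the threshold. YAF2 (ENSG00000015153, minus strand, chr12:42157104-42238349) was at 26.5, 25.8 and 28.3 CPM with DMSO and at 31.5, 34.5 and 35.7 CPM with FT671, without overlap. Its log2 fold change was 0.35 (SE 0.103, 95% interval 0.13 to 0.57, adjusted p = 0.0114), and without FT671 replicate 3 the call was lost (0.31, adjusted p = 0.0689). RYBP (ENSG00000163602, minus strand, chr3:72371825-72446621) was at 99.4, 112 and 135 CPM with DMSO and at 104, 112 and 120 CPM with FT671. All FT671 libraries lay within the range of the DMSO libraries, of which DMSO replicate 3 was again the highest. The log2 fold change was -0.02 (SE 0.104, 95% interval -0.25 to 0.20, adjusted p = 0.866) and turned to 0.09 (adjusted p = 0.30) without DMSO replicate 3.

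**Figure D2:**
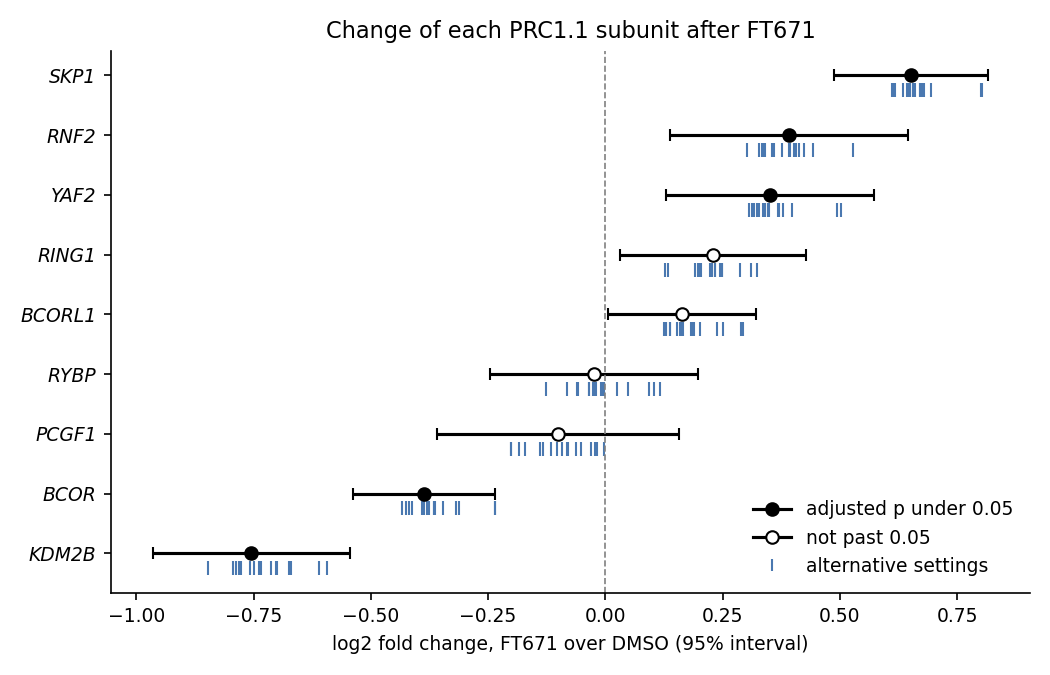
Log2 fold change of each subunit, FT671 over DMSO, with its 95% interval (circles, filled where the adjusted p was under 0.05) and the values under 17 alternative settings (blue ticks). KDM2B at -0.75 and SKP1 at 0.65 lie at opposite ends and RYBP at -0.02 lies across 0.

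The balance between subunits was followed as the ratio of counts per kilobase of exon within a library, which does not depend on how libraries are scaled. These are ratios of RNA, and protein levels were not measured in these libraries. KDM2B and SKP1, whose proteins form a dimer, moved apart most. The log2 ratio of KDM2B to SKP1 was -0.07, -0.02 and -0.08 in the DMSO libraries, near equal levels by the length of the union of exons, and -1.16, -1.58 and -1.62 in the FT671 libraries. The mean dropped from -0.06 ± 0.03 to -1.45 ± 0.25 (SD, n = 3 each), a difference of -1.40 or a 2.63-fold lower ratio, and the nearest libraries of the treatments were 1.08 apart. By the longest transcript, KDM2B took 6.96% and SKP1 4.79% of the summed subunits with DMSO, so near equality depends on the length. The difference between treatments does not. For 4 pairs an exact two-sided permutation test over the 20 assignments of libraries to treatments was run, which cannot give a p under 0.1. It gave this exact p of 0.1 for KDM2B to SKP1 (adjusted over the 4 pairs, 0.133).

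Of the 3 pairs of homologs that share a position in the complex, the libraries of the treatments did not overlap for 2, BCOR to BCORL1 and RYBP to YAF2, and overlapped for RING1 to RNF2. Ratios of other gene pairs were not counted, and among single genes 57.1% did not overlap. The number of pairs is therefore not a result about these homologs. BCOR to BCORL1 was 0.95, 1.08 and 0.91 in the DMSO libraries and 0.44, 0.42 and 0.44 in the FT671 libraries on the log2 scale. The ratio was 1.46-fold lower after FT671, a difference of -0.55 (exact permutation p = 0.1, adjusted 0.133, n = 3 each). BCOR made up 66.4 ± 1.34% of the sum of both with DMSO and 57.5 ± 0.177% with FT671. RYBP to YAF2 went from 2.26, 2.47 and 2.61 to 2.08, 2.05 and 2.11, a difference of -0.37 without overlap (exact permutation p = 0.1, adjusted 0.133, n = 3 each). In libraries thinned to the smallest total this difference was -0.26 (exact permutation p = 0.3). When each library was left out in turn, the difference stayed between -0.46 and -0.29. The exact permutation p was then 0.1 without a DMSO library and 0.2 without an FT671 library. RYBP remained the major one, at 84.4 ± 1.59% of the sum of both with DMSO and 80.9 ± 0.302% with FT671. RING1 to RNF2 was 0.95, 1.05 and 0.49 in the DMSO libraries and 0.71, 0.77 and 0.59 in the FT671 libraries, which overlapped. The difference was -0.14 (exact permutation p = 0.5, adjusted 0.5, n = 3 each), and it rested on single libraries. It was -0.31 without DMSO replicate 3 (exact permutation p = 0.1), -0.083 without DMSO replicate 1 (exact permutation p = 0.8), -0.034 without DMSO replicate 2 (exact permutation p = 1) and -0.093 without FT671 replicate 3 (exact permutation p = 0.8).

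**Figure D3:**
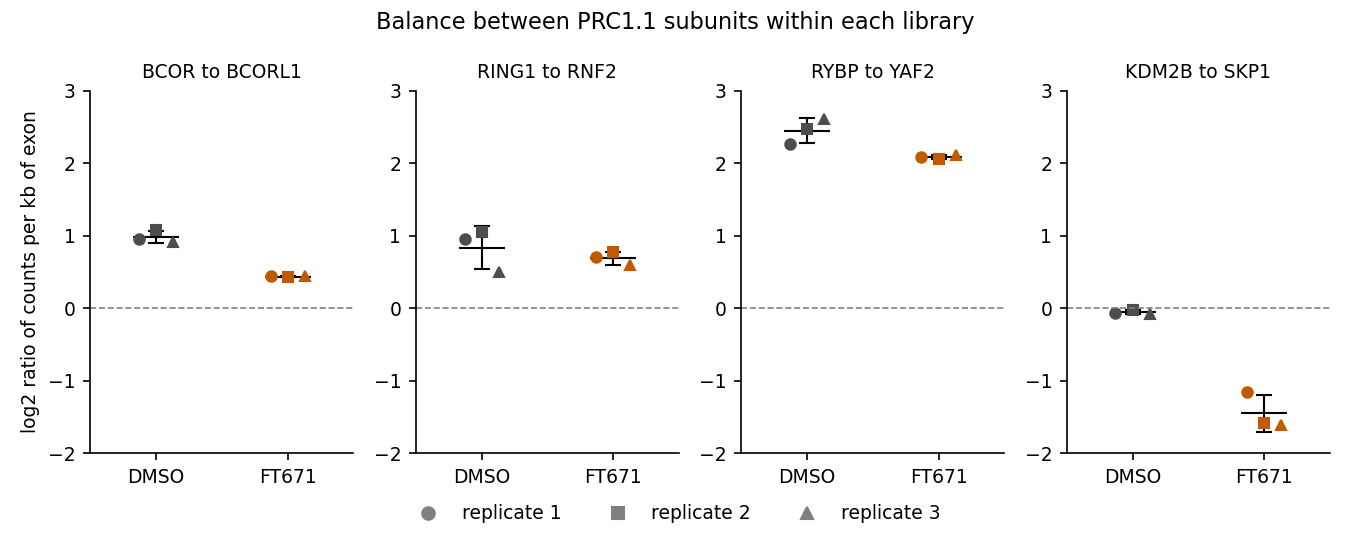
Log2 ratio of counts per kilobase of exon (union of exons) for 4 pairs of PRC1.1 subunits in each library. Black bars give the mean and SD, and the dashed line marks equal levels by this length. The ratio of KDM2B to SKP1 drops from -0.06 to -1.45, whereas the libraries of RING1 to RNF2 overlap.

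Levels can be compared between subunits only per length, for which TPM were used, the counts per kilobase of the union of exons scaled to the same total in each library. With DMSO, BCOR was the highest at 114 ± 9.29 TPM, followed by RING1 at 77.3 ± 3.33 TPM. BCORL1 (57.9 ± 6.53 TPM), PCGF1 (52.8 ± 5.32 TPM), RYBP (45.6 ± 9.51 TPM) and RNF2 (44.2 ± 10.6 TPM) came next, and each overlapped its neighbor in this order. SKP1 (20.7 ± 1.01 TPM) and KDM2B (19.9 ± 0.872 TPM) overlapped as well, and YAF2 was the lowest at 8.28 ± 0.863 TPM. The highest mean was 13.8-fold above the lowest. With FT671 the span was 8.73-fold, RING1 (87.4 ± 0.872 TPM) and BCOR (83.7 ± 3.19 TPM) overlapped at the top, and KDM2B (11.4 ± 1.36 TPM) overlapped YAF2 (10.0 ± 0.701 TPM) at the bottom. SKP1, at 31.1 ± 1.98 TPM, was then apart from KDM2B. The order depends on the length given to a gene. With the longest transcript of each gene in place of the union of exons, PCGF1 ranked second and KDM2B came before SKP1.

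The 9 subunits together summed to 403, 431 and 489 TPM in the DMSO libraries and to 425, 422 and 442 TPM in the FT671 libraries, with means of 441 ± 43.8 and 430 ± 10.7 TPM (SD, n = 3 each). The sum thus overlapped between treatments while its composition differed. The share of BCOR went from 25.9 ± 0.605% to 19.5 ± 0.431% and that of KDM2B from 4.52 ± 0.251% to 2.66 ± 0.342%. Higher shares without overlap were found for RING1 (17.6 ± 1.17% to 20.3 ± 0.475%), RNF2 (9.95 ± 1.43% to 12.6 ± 0.592%), BCORL1 (13.1 ± 0.540% to 14.4 ± 0.399%), SKP1 (4.70 ± 0.243% to 7.23 ± 0.367%) and YAF2 (1.88 ± 0.113% to 2.33 ± 0.139%). PCGF1 (12.0 ± 0.901% to 11.1 ± 1.18%) and RYBP (10.3 ± 1.1% to 9.84 ± 0.601%) overlapped. Shares sum to a fixed total, so a lower share of one subunit raises the others, and they were not tested.

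**Figure D4:**
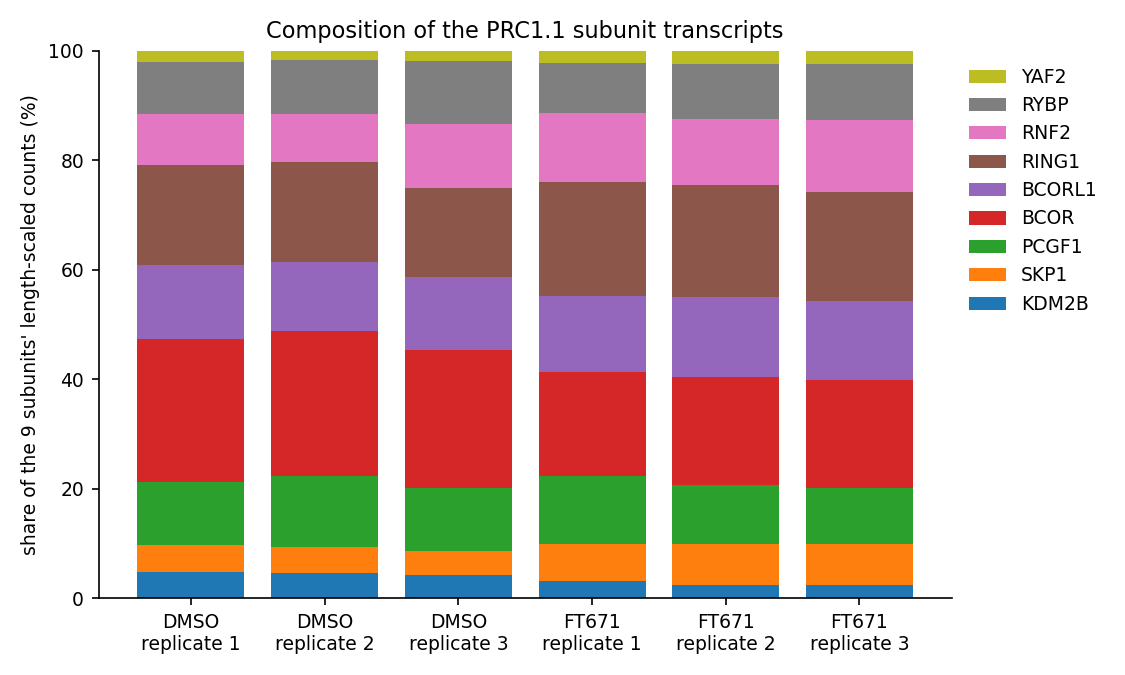
Share of each subunit in the length-scaled counts of all 9 (percent, stacked bars, 1 bar for each library). BCOR takes 25.9% on average with DMSO and 19.5% with FT671, and KDM2B and SKP1 together stay a small part of the sum.

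Genes around PRC1.1 were counted in lists by function, to be read against the 26.5% lower, 23.6% higher and 50.1% called in either direction over all genes, and no difference between a list and all genes was tested. TRIM27, a ubiquitin ligase that binds USP7, fell from 102 ± 7.07 to 77.1 ± 5.39 CPM (SD, n = 3 each), with a log2 fold change of -0.41 (adjusted p = 0.00125). Among the 5 PCGF proteins of the other PRC1 complexes, 1 was lower, 1 higher and 3 did not pass, with a median log2 fold change of -0.04. BMI1, of canonical PRC1, fell by 0.37 on the log2 scale (adjusted p = 0.0179), and PCGF6, of PRC1.6, rose by 0.38 (adjusted p = 0.0496). Of the other genes with a CXXC zinc finger, 10 of 11 were tested and 7 were lower, 1 higher and 2 not past the threshold, with a median of -0.59, beside 26.5% lower and 23.6% higher over all genes. Among them FBXL19 fell by 1.09 (adjusted p = 4.66e-06) from 40.9 ± 3.15 to 19.1 ± 2.06 CPM, and TET1, a methylcytosine dioxygenase, rose by 0.36 (adjusted p = 0.0101) with libraries that overlapped. KDM2A, the paralog of KDM2B, named after its values were seen, fell from 83.3 ± 2.58 to 54.3 ± 2.02 CPM, a log2 fold change of -0.62 (adjusted p = 3.08e-05).

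For the removal of H2AK119ub, 8 of 9 genes were tested, and 3 were lower, 1 higher and 4 not past the threshold (median -0.15), beside 50.1% called over all genes. ASXL1, the cofactor of the deubiquitinase BAP1, fell from 141 ± 4.83 to 71.2 ± 3.05 CPM (log2 fold change -0.99, adjusted p = 2.42e-07), and MYSM1, another H2A deubiquitinase, rose from 22.3 ± 7.60 to 40.4 ± 4.16 CPM (0.93, adjusted p = 5.65e-04). Of 5 genes linked to reading of the mark, 1 was lower, 2 higher and 2 not past it (median -0.01). JARID2, an accessory subunit of PRC2, fell by 0.83 (adjusted p = 2.24e-06), and DNAJC2 rose by 0.63 (adjusted p = 0.00241). DNAJC2 shares 1400 bases of exon with PMPCB on the opposite strand. Of 8 SCF partners of SKP1, 5 were lower, 1 higher and 2 not past the threshold (median -0.34), beside 26.5% lower and 23.6% higher over all genes. CCNF, an F-box protein, fell by 1.43 (adjusted p = 1.37e-07), and SKP2, the F-box protein that targets CDKN1B, rose by 0.39 (adjusted p = 9.53e-04). CCNF and SKP2 share exon bases with genes on the opposite strand that moved, SKP2 with NADK2 (log2 fold change -0.54, adjusted p = 6.87e-04) and CCNF with a long noncoding RNA (-1.32, adjusted p = 3.75e-05). Of 3 partners of BCOR outside PRC1.1, MLLT1 fell by 1.08 (adjusted p = 1.53e-07), BCL6, the repressor for which BCOR was named, rose by 0.95 (adjusted p = 7.19e-06), and MLLT3 was not tested because of its low counts. BCL6 shares 171 bases of exon with a long noncoding RNA on the opposite strand that rose as well (1.46, adjusted p = 0.00257).

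**Figure D5:**
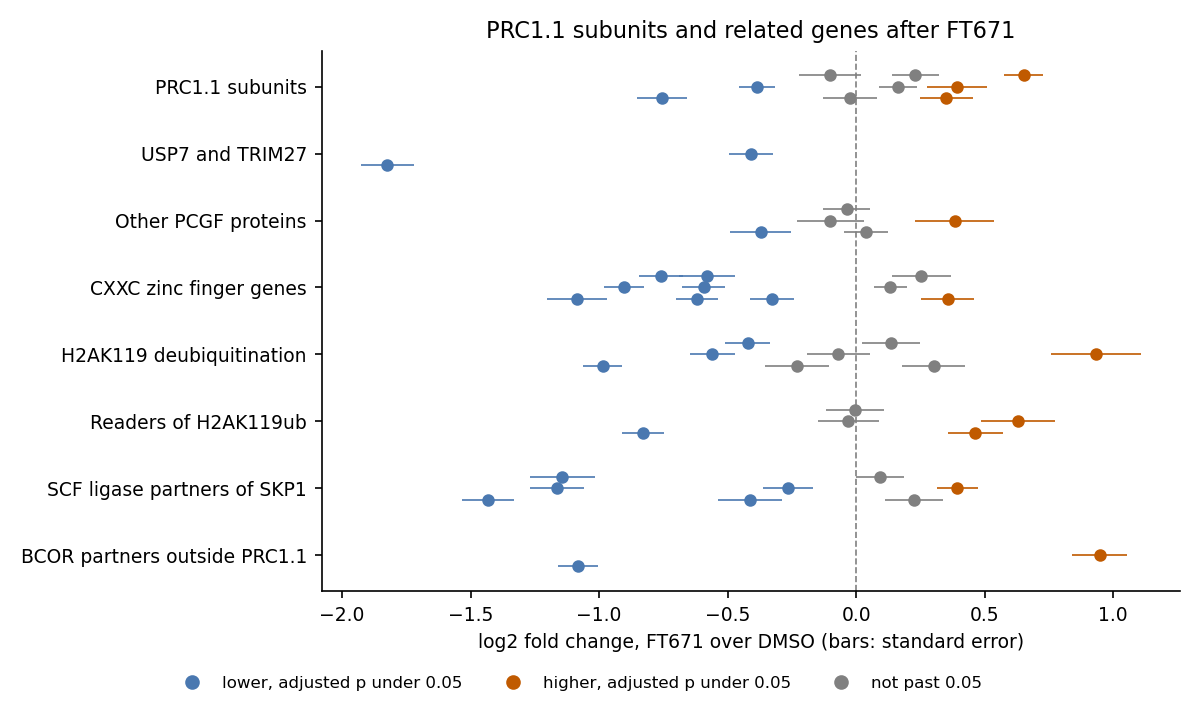
Log2 fold change (FT671 over DMSO) with its standard error for the PRC1.1 subunits and 7 lists of related genes, 1 point for each gene tested. Subunits lie on both sides of 0, between -0.75 and 0.65, and USP7 lies farthest to the left at -1.82.

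Genes whose pattern over the 6 libraries was most like that of KDM2B, the subunit with the largest change, were JAG2 and TNFRSF1B (Pearson r of log2 CPM 0.9998 for both) and RIC8A (0.9973), out of 13865 genes with a mean of at least 1 CPM. A correlation of 0.95 or more was reached by 1084 genes. The 6 points share 2 treatments, so these values describe the likeness and carry no test.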

How the data were processed

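RNA-seq was performed on 6 K562 libraries (DMSO and FT671, 3 each). The ChIP-seq samples of the series were not used here. Per the submitters' processing notes and the methods, the authors aligned reads to hg38 with STAR and deposited raw read counts per gene. The strand setting and annotation release are not given in the sources used here. Of 60609 identifiers, 314 (0.0609% of counts) did not match GENCODE release 44. Counts were filtered with filterByExpr, scaled by TMM and compared in edgeR 4.0.16 (R 4.3.3) by its quasi-likelihood test with no covariate, with Benjamini-Hochberg adjustment over 13895 genes. Replicates differed by more than counting error, so no library was a copy.

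The members and gene lists were chosen with earlier results of these data known. Genes named are the 9 subunits, USP7 and TRIM27, from each other list the called gene with the largest fall and the largest rise, genes overlapping a subunit with at least 10 counts, and the 3 genes most alike to KDM2B. Genes overlapping other named genes were added after their values were seen. Alternatives were DESeq2's size factors, library totals alone, DESeq2's Wald test (DESeq2 1.42.0), other filters, gene length and GC corrections, thinning, the replicate block and leaving out each library. On simulated counts with 200 genes changed among 13881 tested, the fit recovered 47.1% of genes changed by 0.5 on the log2 scale and 96% of those changed by 1, with 5 false calls. The simulation used a common dispersion for all genes and no outlying library such as DMSO replicate 3. In the data 50.1% of genes were called, so these rates do not describe the comparison of FT671 with DMSO.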

Additional observations from a re-analysis of the deposited data

How the results depend on the processing

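Under the 17 alternatives KDM2B, BCOR and SKP1 kept their direction and their call (log2 fold changes of -0.85 to -0.59, -0.43 to -0.23 and 0.61 to 0.80), and 2 subunits were lower in each of them. The number of subunits higher was 3 and became 5, with RING1 and BCORL1 added, with DESeq2's size factors, with the GC correction and with the replicate block together with the GC correction, became 4 with the gene length correction, with or without the block, and with at least 10 counts in every library, and ranged from 1 (without FT671 replicate 3) to 4 when each library was left out in turn. The number of all genes higher moved as well. From 3276 it became 3461 with DESeq2's size factors, 4012 with the GC correction and 3848 with the gene length correction. It was 2990 with at least 10 counts in every library and 2522 without FT671 replicate 3. YAF2 lost its call without a filter on low counts (0.31, adjusted p = 0.0512). RYBP, which was not called, changed sign to 0.12 with the gene length correction, 0.10 with this and the block, 0.049 in thinned libraries, 0.093 without DMSO replicate 3 and 0.026 without FT671 replicate 1, and ranged from -0.13 to 0.093 when each library was left out. The share of BCOR in BCOR and BCORL1 with DMSO was 72.7% with the length of the longest or the MANE Select transcript, and that of RYBP in RYBP and YAF2 was 75% with the longest transcript. RYBP has no MANE Select transcript, so that alternative was not run for it. The cause of these changes was not tested, other than the length used. Same-numbered libraries did not deviate together throughout (r of 0.11, -0.06 and 0.14), and FT671 replicate 1 correlated best with DMSO replicate 2. The mean r was 0.065 for same-numbered libraries and -0.035 for the 6 other combinations, both small, and the numbers were not taken as pairs. The fit with the replicate block called the same numbers of subunits, 2 lower and 3 higher, and 3761 genes lower and 3374 higher against 3687 and 3276 without it. Depth bears on the floor of 0.208 to 0.666 CPM, far below the subunits, and thinning all libraries to the smallest total left 2 subunits lower and 3 higher.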
